A study of Drosophila melanogaster with 2 samples.

Results

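The fibroblast growth factor (FGF) pathway genes of Drosophila melanogaster examined here are the ligand genes bnl, ths and pyr, the receptor genes btl and htl, and the adaptor gene stumps. They are 6 of 13945 protein-coding genes, and they were taken by name. For each gene, the peaks overlapping its body or the 10 kb on either side by at least 1 bp were collected from 8 deposited peak lists. The lists come from chromatin immunoprecipitation and sequencing (ChIP-seq) for Drgx, a paired-like homeodomain transcription factor. There is 1 group of 2 biological replicates, and both are whole embryos aged 1 day of a strain, Drgx-GFP, with an insertion that makes Drgx fused to eGFP. The precipitation used an antibody to GFP according to the sample descriptions, although another field of the labels names Drgx as the antibody. Whether the fused gene replaces the native one or is added to it is not given in the labels, and whole embryos mix tracheal, mesodermal, neural and all other cells, so no peak can be placed in a cell type. A control library is named in the labels and was not analysed here, so the peaks could not be set against an independent background.

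In flies, Branchless (bnl) is the ligand that guides outgrowing tracheal branches through its receptor Breathless (btl). Thisbe (ths) and Pyramus (pyr) act through the receptor Heartless (htl), which the mesoderm needs to spread and to form heart and muscle precursors. Stumps, also called Dof, is the intracellular adaptor that links both receptors to Ras and the MAP kinase cascade.

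The FGF genes carried Drgx peaks of middle to low rank, and the ligand genes carried most of them. There are 4 thresholded lists, 1 per replicate and 2 made from both, here called pooled and conservative, and each has a longer ranked list that also keeps the peaks under the threshold. In the pooled thresholded list, 12 of 8443 peaks lay in FGF windows. Of the 8443 pooled peaks, 6898 recur in the conservative list with the same position and signal, so presence in both is not independent support. The windows of bnl and ths held 4 each, that of stumps 2, those of pyr and htl 1 each, and that of btl 0. Thus 5 of the 6 genes had a peak, where 70.4% of all coding genes had one in a window of the same kind. The highest signal, 188, ranked 2263, so 0 of the 12 were among the 2110 strongest peaks of the list. The median signal was 97.3 at the FGF genes and 120.1 over the whole list. Signal is the authors' own value per peak, on a scale not given in the sources used here, and it is used only to describe and rank peaks within a list.

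The sequences of 5 summit windows are printed because they are the strongest peak of each FGF gene whose sequence is shown, plus the promoter peak of bnl and the bnl peak with the homeodomain core word. These last were chosen after their words were seen. Each run is the plus strand of dm6, 5′ to 3′, from 50 bases before to 50 bases after the summit, taken from the Release 6 reference. Capitals mark matches, on either strand, to 7 searched words. They were TAATTA, the core bound by many homeodomains, and TAATCC, a variant bound by Bicoid-like ones. The others were GAGAGAG for the GAGA factor, CATATG for the mesodermal regulator Twist, TACGTG for Trachealess with its partner Tango, CCGGAAG for Ets factors such as Pointed, and CAGGTAG for the early activator Zelda.
bnl intron (chr3R:19833725-19833825): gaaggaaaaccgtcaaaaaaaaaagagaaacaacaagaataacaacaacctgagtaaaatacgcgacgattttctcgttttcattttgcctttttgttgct
bnl promoter (chr3R:19836864-19836964): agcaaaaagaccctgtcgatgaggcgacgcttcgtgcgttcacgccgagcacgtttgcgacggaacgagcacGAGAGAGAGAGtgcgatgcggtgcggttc
bnl distal intron (chr3R:19808260-19808360): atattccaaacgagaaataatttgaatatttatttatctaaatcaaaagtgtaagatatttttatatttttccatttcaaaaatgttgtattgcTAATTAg
htl promoter (chr3R:18049718-18049818): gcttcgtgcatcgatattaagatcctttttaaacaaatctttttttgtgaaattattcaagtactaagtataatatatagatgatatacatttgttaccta
stumps upstream (chr3R:14575030-14575130): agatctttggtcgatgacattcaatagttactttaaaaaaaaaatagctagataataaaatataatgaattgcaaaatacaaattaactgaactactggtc

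Searched words were rare at these summits. TAATTA lay within 50 bp of 1 of the 12 pooled FGF summits, the distal bnl intron, and of 7.97% of all 8443 pooled summits. GAGAGAG lay at 1 of 12, the bnl promoter, where overlapping copies form one run, and at 2.93% of all summits. The other 5 words were at 0 of the 12, against 3.20% of all summits for TAATCC, 3.59% for CATATG, 1.81% for TACGTG, 0.272% for CCGGAAG and 0.332% for CAGGTAG. A match or its lack describes only the letters of this window. The bnl promoter was also the most GC-rich of the 12 windows, with 60.4% G and C. The median was 30.7% over the 12 FGF windows and 34.7% over the whole pooled list, and the lowest FGF window, in the distal bnl intron, had 18.8%.

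**Figure D1:**
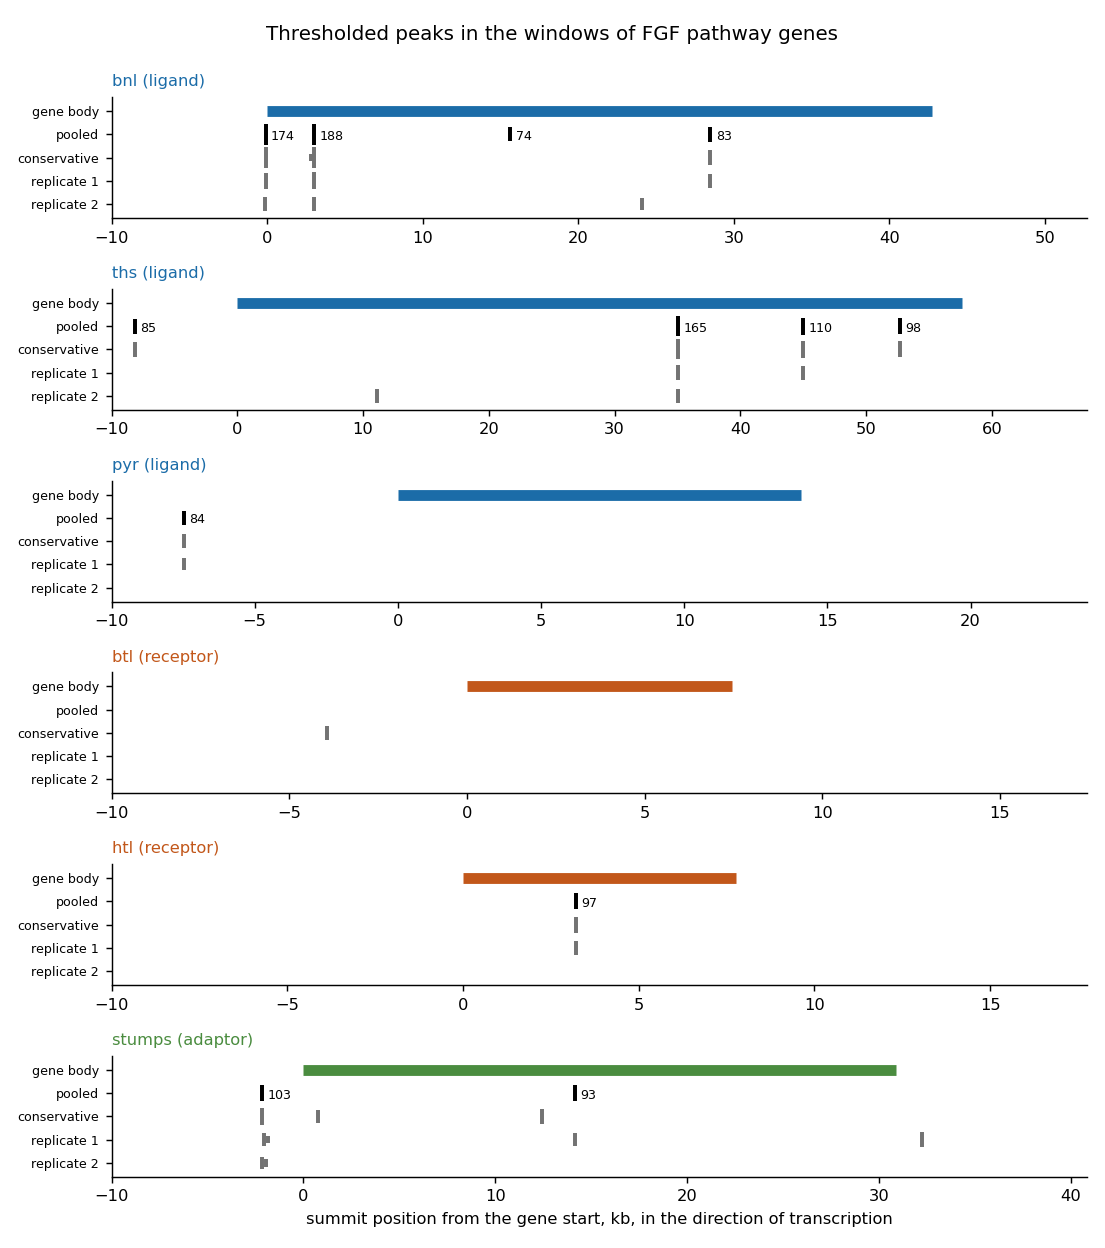
Positions of thresholded peak summits (ticks) in each FGF gene window, in kb from the gene start in the direction of transcription, with the gene body as a bar; tick length grows with signal, and the number beside each pooled tick is its signal. Ticks stand in all 4 list rows at 2 places in bnl, 1 in ths and 1 before stumps, and btl has a tick only in the conservative row.

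The bnl gene (FBgn0014135, chr3R:19794073-19836817, minus strand) had the strongest FGF peaks, at its promoter and in an intron close to it. The intron peak, at chr3R:19833693-19833819, had its summit 3042 bp downstream of the single bnl start site and a signal of 188 in the pooled list. Its signal was 111 in replicate 1 (rank 2287 of 6349) and 81.2 in replicate 2 (rank 2209 of 5475). The promoter peak, at chr3R:19836722-19837105, had its summit 97 bp before the start site and a pooled signal of 174 (rank 2511), with 90.8 in replicate 1 and 78.5 in replicate 2. Both peaks were in all 4 thresholded lists, and replicate summits at the promoter lay 90 and 108 bp before the start site. Both sites stood at like places in the ranked lists, the intron peak 2.74% from the top in replicate 1 and 2.90% in replicate 2, and the promoter peak 3.60% and 3.04%.

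Deeper in bnl the lists disagreed. A peak 28507 bp inside the gene, at chr3R:19808118-19808501, had a pooled signal of 83.3 and was thresholded in replicate 1 (75.4) and not in replicate 2. A peak 15643 bp inside the gene had a pooled signal of 73.7, the lowest of the 12, and was in no other thresholded list. Replicate 2 alone had a thresholded peak 24098 bp inside the gene (signal 41.9), where the best overlapping replicate 1 peak of the ranked list had a signal of 20.5. In the ranked lists bnl was the densest FGF window, or in replicate 2 the second densest, with 1148, 1291, 1036 and 908 peaks per Mb in the pooled, conservative, replicate 1 and replicate 2 lists, against 722, 717, 639 and 582 over the whole lists. Its thresholded density in the pooled list, 63.8 per Mb, was close to the 63.1 per Mb of the whole list.

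The ths gene (FBgn0033652, chr2R:11756817-11814424, plus strand) has 2 annotated start sites, and its strongest peak lay by the downstream one. This peak, at chr2R:11791649-11792032, had its summit in an intron, 1475 bp past that start and 35024 bp past the gene start. Its signal was 165 in the pooled list (rank 2712), 92.4 in replicate 1 and 73.4 in replicate 2, and the replicate summits lay within 1 bp of each other. It was the single ths peak found in all 4 thresholded lists. Further intron peaks at 45021 and 52692 bp from the gene start had pooled signals of 110 and 98.2. The first of these was thresholded in replicate 1 (70.9), and the one farther in was thresholded in neither replicate. A peak between genes, 8132 bp before ths, had a pooled signal of 84.7 and was in neither replicate's thresholded list.

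A ths peak was seen in replicate 2 alone. At chr2R:11767781-11768084 replicate 2 had a thresholded peak with a signal of 68.8 and the highest score, 1000, in an intron of ths and 520 bp before the start of CG13193. Apart from replicate 2's own ranked list, no peak of any list overlapped it, the ranked list of replicate 1 included. It was the single site of the 18 described here with nothing in the other replicate's ranked list.

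The pyr gene (FBgn0033649, chr2R:11712263-11726345, plus strand) had no peak of a thresholded list in its body or within 5 kb. Its 1 pooled peak, at chr2R:11704587-11704970, lay 7484 bp before the gene in an exon of the non-coding RNA gene lncRNA:CR45377. The nearest coding start site there belonged to Ir48b, an ionotropic receptor gene, at 2330 bp. The signal was 83.7 in the pooled list and 58.8 in replicate 1. Replicate 2 had a peak there in its ranked list alone, with a signal of 36.1 and a score of 619. The windows of pyr and ths lie near each other on the chromosome and do not overlap.

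The receptor genes had less. For htl (FBgn0010389, chr3R:18045216-18052984, minus strand), the peak at chr3R:18049576-18049959 lay inside the gene, 402 bp before the downstream of its 2 start sites. It had a signal of 96.5 in the pooled list (rank 5568) and 72.3 in replicate 1 (rank 4104 of 6349). In replicate 2 the best overlapping peak of the ranked list had a signal of 33.4 and a score of 73, far under the threshold of 830. The htl window had no other thresholded peak in any list. Yet its ranked peaks were dense, 1044 per Mb against 722 in the pooled ranked list and 1152 against 582 in the replicate 2 ranked list.

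The btl gene (FBgn0285896, chr3L:14075772-14083229, plus strand) had a thresholded peak in 1 of the 4 lists. The conservative list had a peak with a signal of 76.1 and a score of 851. The same interval had a score of 741 in the pooled ranked list, so it missed the threshold there. Its summit lay 3934 bp before btl, and the nearest coding start site was not that of btl. Overlapping peaks had signals of 38.8 in replicate 1 and 32.0 in replicate 2, with scores of 567 and 84. The windows of 29.6% of coding genes held 0 pooled peaks, as that of btl did.

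At stumps (FBgn0020299, chr3R:14577217-14608079, plus strand), the strongest pooled peak lay before the gene. This peak, at chr3R:14574888-14575271, had a signal of 103 in the pooled list (rank 5163), 57.3 in replicate 1 and 46.1 in replicate 2. It was in all 4 thresholded lists, 2137 bp before the gene start, in an intron of the neighbouring gene CG7987 and 807 bp past that gene's start site. Each replicate list split the place into overlapping peaks, the weaker with signals of 10.7 and 9.34. The other pooled peak, at chr3R:14591182-14591565, lay in the gene, 246 bp before the nearest of its 5 start sites. It had a signal of 92.7 in the pooled list and 68.6 in replicate 1, and was absent from the thresholded replicate 2 list and from the conservative list, where its ranked score was 157. The conservative list instead had peaks 752 bp (signal 67.6) and 12437 bp (86.6) past the gene start. The strongest replicate 1 peak of the window, with a signal of 79.8, lay past the gene end and 190 bp before the start of CG14853, and no pooled or conservative peak overlapped it.

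By role, the ligand windows held 9 pooled peaks in 174 kb, the receptor windows 1 in 55.2 kb and the adaptor window 2 in 50.9 kb. That is 51.6, 18.1 and 39.3 peaks per Mb, against 63.1 over the whole list. By listed peaks, the order of ligands and adaptor turned round in the other thresholded lists. The ligand and adaptor windows had 51.6 and 59.0 peaks per Mb in the conservative list. In replicate 1 they had 34.4 and 78.6, and in replicate 2 they had 28.7 and 39.3. The replicate lists count the split peak before stumps as 2. Both adaptor peaks of replicate 2 belong to this 1 site, and counted once the adaptor stood below the ligands there. The conservative list splits the bnl intron peak too, with a weaker part of signal 5.43, so its 9 ligand peaks are 8 sites. The receptor windows had 36.2, 18.1 and 0 peaks per Mb in the conservative, replicate 1 and replicate 2 lists, the lowest of the roles in each. No test was made, since each role has at most 3 genes and genes are not replicates. Window length differs with role. The windows of bnl and ths, 62.7 and 77.6 kb, were among the longest, as 2.92% and 1.78% of coding genes had longer ones, and 79.5% of coding genes had fewer pooled peaks than their 4. For the receptors, 17.6% (btl) and 17.0% (htl) of coding genes had longer windows. In the ranked lists the roles lay closer together, with 826, 851 and 786 peaks per Mb in the pooled list for ligands, receptors and adaptor.

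**Figure D2:**
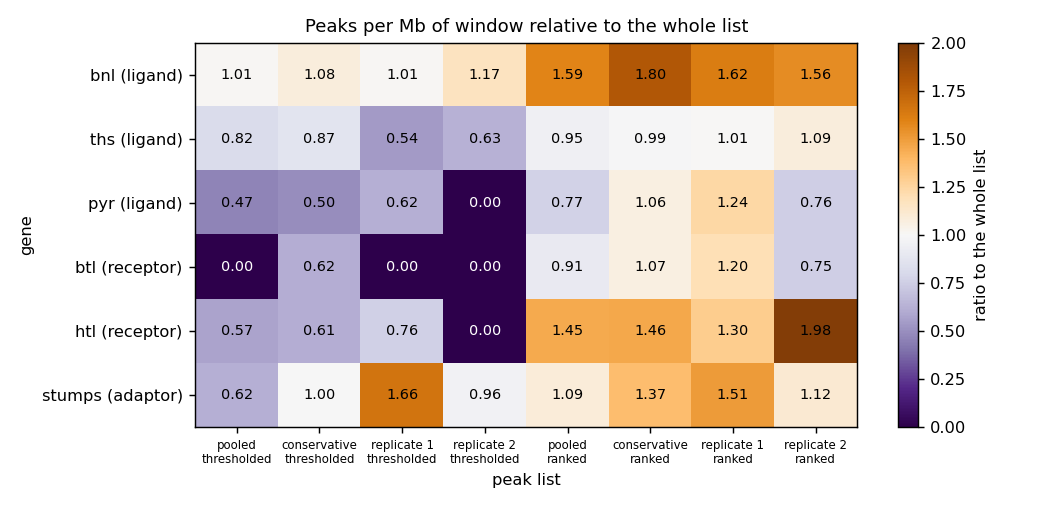
Peaks per Mb of window for each FGF gene (rows) divided by the density of the whole list, for the 8 lists (columns). In the pooled thresholded list the ratio was at or under 1.01 for all 6 genes, and in the 4 ranked lists it was at least 1.56 for bnl.

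The number of FGF genes with a peak differed between lists. In the conservative list 6 of 6 FGF genes had a peak (69.3% of all coding genes), in replicate 1 there were 5 of 6 (64.2%) and in replicate 2 there were 3 of 6 (59.9%). The 3 in replicate 2 were bnl, ths and stumps. Over 6 genes, no excess or lack can be read from these shares. A pooled summit within 1000 bp of an own start site was present at 3 of 6 genes, bnl, htl and stumps, where 25.2% of coding genes had one. In the thresholded list of replicate 2, bnl alone had such a summit. Of the 12 pooled summits, 7 were in introns, 3 at promoters (within 500 bp of any start site), 1 in another exon and 1 between genes. In the whole pooled list 45.0% were in introns and 36.8% at promoters. The nearest coding start site was that of the FGF gene itself for 8 of the 12 and that of another gene for 4.

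Support by replicates was uneven. Of the 12 pooled peaks, 4 overlapped a thresholded peak of both replicates, 5 of replicate 1 alone, 0 of replicate 2 alone and 3 of neither. Over the whole list, 51.1% overlapped both and 18.2% neither. Support goes with signal, so the FGF peaks were also set beside peaks of like rank. Among FGF peaks ranked 2111 to 4221, 3 of 3 were in both replicates, against 76.3% of all peaks of these ranks. Of the FGF peaks in the next 2111 ranks 1 of 5 was in both, against 20.4%, and of those in the weakest 2111 ranks 0 of 4, against 9.33%. The whole thresholded lists differ in size too, with 6349 peaks in replicate 1 and 5475 in replicate 2.

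**Figure D3:**
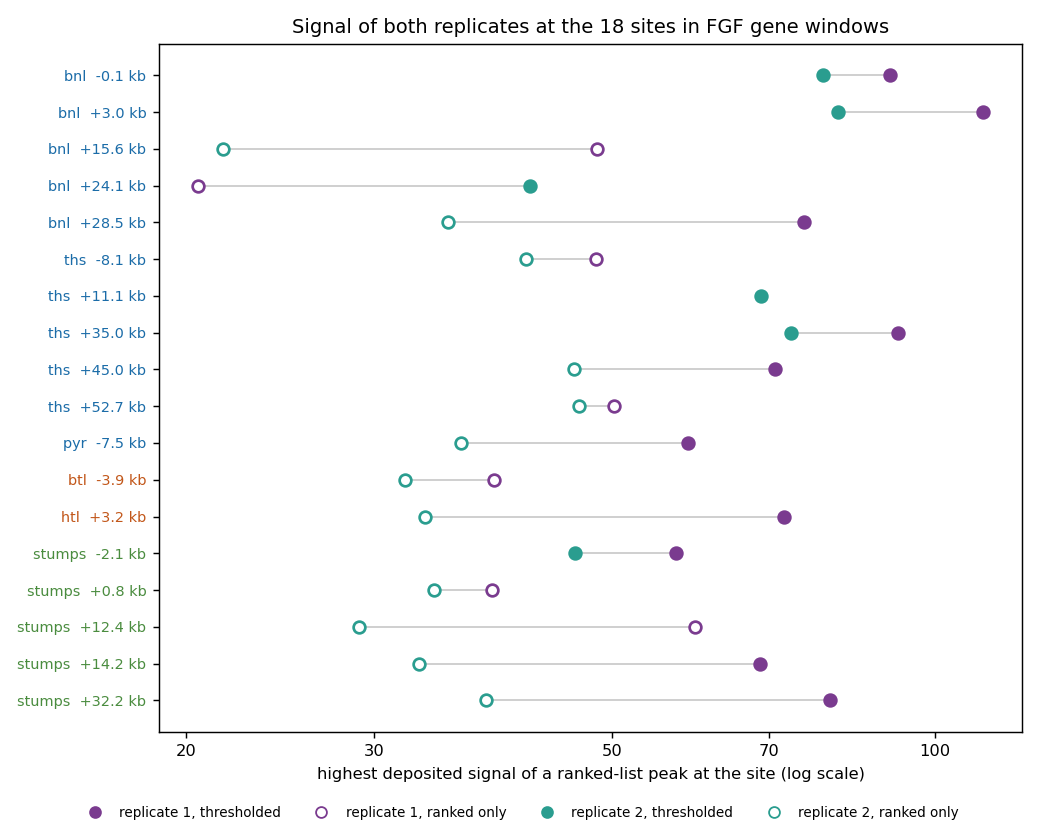
Highest deposited signal (log axis) of the ranked-list peak of each replicate at the 18 sites where any thresholded list has a peak in an FGF gene window, labelled by gene and kb from its start; filled points are sites thresholded in that replicate. Each replicate's signal is on the scale of its own list. Filled points stand for both replicates at 4 sites, and replicate 2 has no filled point at btl, htl or pyr.

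Merging overlapping thresholded peaks of the 4 lists gave 18 sites, of which 11 were in ligand, 2 in receptor and 5 in adaptor windows. All 4 lists held 4 of them, namely the bnl promoter peak and the bnl intron peak next to it, the ths peak by its downstream start and the peak before stumps. A single list held 7. Thresholded peaks of replicate 1 without replicate 2 stood at 6 sites, those of replicate 2 without replicate 1 at 2, and neither replicate had one at 6. Peaks of both ranked lists overlapped 17 of the 18 sites, though these lists cover 21.5% (replicate 1) and 16.7% (replicate 2) of the chromosomes and so overlap many places. Ranked as a share of the list, 7 of the 12 pooled peaks stood higher in replicate 1 and 5 in replicate 2. For htl the ranked positions were 4.99% from the top in replicate 1 and 10.8% in replicate 2.

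Genes that act with FGF signalling, in 5 further lists, had more pooled peaks per window length than the 6 FGF genes. Of 38 listed genes 37 matched the annotation, and Gap1 did not. A pooled peak lay in the window of 34 of 37 (91.9%, against 70.4% of coding genes), and 18 of 37 had a summit within 1000 bp of a start site (48.6%, against 25.2%). Their windows held 196 peaks, counting a peak shared by 2 genes for each, or 122.5 per Mb, where the FGF windows had 42.8 per Mb. Of these 196, 54 (27.6%) were among the 2110 strongest, close to the 25% that these make up of the whole pooled list. The FGF windows had 0 of 12 there. The median signal was 97.3 at the FGF genes and 137 over the other lists, though 95.7 over the mesoderm list. These lists were chosen with results on some of their genes known, and no test of the difference was made. The shares were not matched for window length either. Several of these windows were long, such as 99.2 kb at Hs6st and 75.9 kb at pnt. Only 17.0% of coding genes had a window longer than the 27.8 kb of htl.

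**Figure D4:**
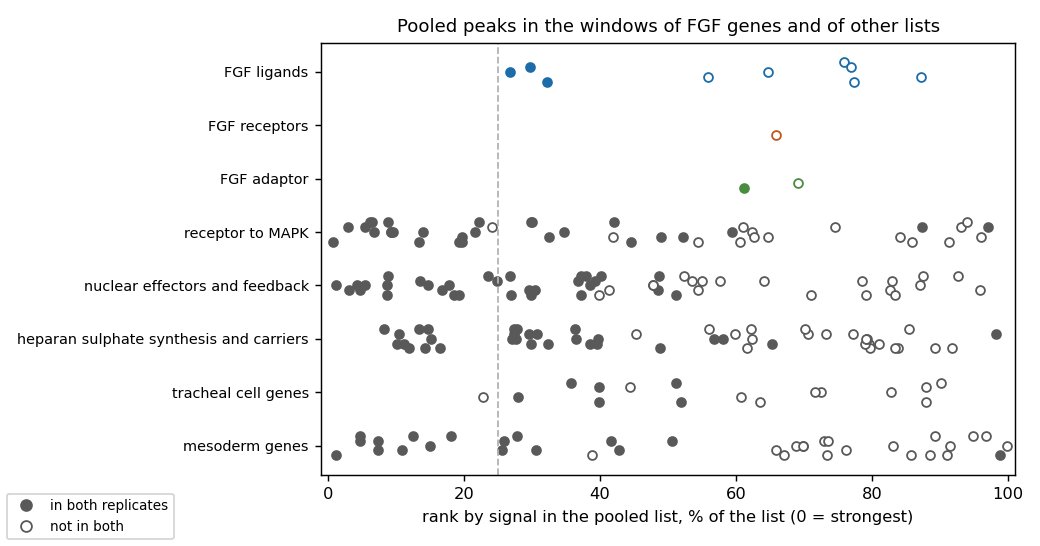
Rank by signal in the pooled list, as a percent of the list, of each pooled peak in the windows of FGF genes (top 3 rows) and of the other gene lists; filled points overlap a thresholded peak of both replicates and the dashed line marks 25%. The strongest FGF point stands at 26.8%, right of the line, and every other list has at least 1 point left of it.

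Genes between the receptors and MAP kinase had a peak in 7 of 9 windows (77.8%, against 70.4% of coding genes). Summits within 1000 bp of a start site reached signals of 378 at csw (a tyrosine phosphatase), 232 at Raf (a MAP kinase kinase kinase), 138 at drk (the Grb2 adaptor) and 103 at Dsor1 (the MAP kinase kinase). The Dsor1 summit was not in both replicates. Away from their start sites the windows of Raf, drk and Dsor1 reached 1170, 491 and 157, each in both replicates. The Dsor1 peak of 157 lay outside the gene, within 500 bp of a start site of another gene. With no summit near a start site, the windows of Cbl (a ubiquitin ligase) and Ras85D (Ras) reached 440 and 113. The Cbl peak was in both replicates and the Ras85D peak was not. Both lay outside these genes, the Cbl peak in an intron of another gene. The Ras85D peak was within 500 bp of a start site of another gene. The windows of rl, the MAP kinase itself, and of Sos, the Ras exchange factor, held 0 pooled peaks. Nuclear effectors and feedback genes had a peak in 4 of 4 windows, where 70.4% of coding genes had one. All 4 had a summit near a start site, where 25.2% of coding genes had one. The signals there were 1056 at sty (Sprouty, a feedback inhibitor first known from the tracheal FGF response), 550 at cic (a repressor lifted by MAP kinase), 188 at pnt and 81.4 at aop (an Ets activator and an Ets repressor). The aop summit was not in both replicates. Away from their start sites the windows of cic, pnt and aop reached 645, 524 and 380, each in both replicates.

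Heparan sulphate chains on glypicans are needed for FGF to reach and bind its receptors. Their synthesis and carrier genes had a peak in 9 of 9 windows, where 70.4% of coding genes had one. The signals near a start site were 288 at Hs2st and 187 at sotv, a sulphotransferase and a chain polymerase, 184 at sgl, which makes a sugar precursor, and 152 at the glypican gene dally. Near the start sites of sfl and Hs6st there was none, and the highest signals in their windows were 393 and 321. The windows of sgl and dally reached 263 and 345 away from their start sites. The sfl peak of 393 and the sgl peak of 263 lay outside these genes, each within 500 bp of a start site of another gene.

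Tracheal cell genes, in whose cells btl acts, had a peak in 7 of 8 windows (87.5%, against 70.4% of coding genes). Their density was 65.1 per Mb. That was the lowest density of the further lists, but close to the 63.1 per Mb of the whole pooled list. The FGF windows had 42.8 per Mb. Of the 16 tracheal peaks, 1 was among the 2110 strongest. Summits near a start site had signals of 118 at rib and 99.6 at trh, the master regulator of tracheal fate. The trh summit was not in both replicates. The window of kni held 0 pooled peaks, and those of salm and vvl reached 212 and 182 away from their start sites. The salm peak, the strongest of the tracheal list, was not in both replicates, and the vvl peak was. Both lay between genes. Mesoderm genes, in whose cells htl acts, had a peak in 7 of 7 windows, where 70.4% of coding genes had one. The heart regulator tin had a summit of 527 near a start site, a peak shared with the window of its neighbour bap. Mef2 had one of 88.5 that was not in both replicates. Away from the Mef2 start sites its window reached 1033, the strongest peak of the mesoderm list, and this peak was in both replicates. It lay outside the Mef2 gene, within 500 bp of a start site of another gene. The windows of twi and how reached 416 and 415 with no summit near their start sites, and the how peak lay between genes.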

How the data were processed

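The authors deposited 8 peak lists on dm6, per the labels and the readme texts. They are ranked and thresholded lists by the irreproducible discovery rate, for each replicate and, in a pooled and a conservative version, for both. The aligner, the peak caller and the making of the conservative version were not given in the sources used here. Each deposited peak has a score, 830 or more in the thresholded lists and at most 1000, a signal and a summit offset. Read depth is unknown. Peaks on chromosomes X, 2L, 2R, 3L, 3R and 4 were ranked by signal within each list.

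Genes came from Ensembl release 115 and sequence from the Release 6 assembly, whose coordinates match dm6 (0 peaks beyond a chromosome end). Overlap meant at least 1 bp. Counting was done in Python 3.11.15 with pandas 2.3.3 and tested on simulated intervals. No test was fitted, since there is 1 group. The rule named every pooled peak in FGF windows, and, of each further list, up to 4 genes with a summit near a start site and up to 2 without. Members and lists were chosen with earlier results of these data known. A gene next to one of the FGF genes is not reported here.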

Additional observations from a re-analysis of the deposited data

How the results depend on the processing

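Depth is unknown and there is no control library here, so a missing peak cannot be told from one too weak to call. Of 10 alternatives for the 5 FGF genes with a peak, 8 gave counts within 1.5 times. With the 4221 strongest peaks alone, 2 genes had a peak, with 3 peaks in all, 3 in ligand, 0 in receptor and 0 in adaptor windows, and 1 gene with a summit near a start site. The ranked list cut at a score of 540 gave 20 peaks, 3 in receptor and 6 in adaptor windows. Windows of 20 kb gave 24 peaks, 4 in receptor and 7 in adaptor windows, with 13 in both replicates, and a pooled peak for all 6 genes. At 20 kb the windows of pyr and ths overlap, and a peak in the overlap would be counted for each. The conservative list gave 2 receptor peaks, and the gene body alone 1 adaptor peak. For leaving out 1 replicate, the thresholded list of the other replicate was used, with no new peak calling, so these counts repeat those above. They were 3 to 5 genes, 7 to 11 peaks, and 1 to 3 genes with a summit near a start site. By role they were 5 to 6 ligand, 0 to 1 receptor and 2 to 4 adaptor peaks. In the list of replicate 2, btl, htl and pyr had no peak. The ligand windows held the most peaks by count under each alternative run, but per Mb the adaptor window stood above them in the conservative list and in each replicate. In replicate 2 this rests on counting 1 split site before stumps as 2 peaks. Per Mb, the adaptor window also stood above with the score cut at 540 and with windows of 20 kb. With windows of 5 kb, or a score of 1000 alone, ligands and adaptor were about level per Mb. The ligands stood above for the gene body alone, the 4221 strongest peaks, and summits inside the window. The order per Mb thus depended on the setting. No paired analysis was possible because there is 1 group.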
